A study of Mus musculus with 18 samples.

Results

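The response of mouse monocytes to 6 days of GM-CSF was compared between wild-type (WT) cells and cells that cannot form STAT5 tetramers, by asking for each gene whether its change from day 0 to day 6 differed between the genotypes. RNA-seq libraries of 4 groups with 3 libraries each were used, which are 12 of the 18 libraries of the series. The groups were Ly6C+ CCR2+ monocytes of WT and double-knockin (DKI) C57BL/6 mice, left untreated on day 0, and the same kinds of monocytes cultured with 20 ng/mL GM-CSF for 6 days. DKI mice carry mutations in the N-domains of both *Stat5a* and *Stat5b* throughout the body, so that STAT5 dimers form but tetramers do not. The 6 libraries of day 3 had no part in the calls and are used to follow the genes found on days 0 and 6 and in an alternative fit of all 18 libraries. Liver is given as the source tissue in the sample labels, but bone marrow is named in the study's design text and methods, where monocytes were enriched with an isolation kit. Of 20298 genes in the table, 10353 had a mean RPKM above 2 in at least 1 of the 4 groups and were tested, and 290 of them (2.8%) were called. Only 12 of the genes tested lay on chromosome X and 0 on chromosome Y, so that shares of all genes nearly leave these chromosomes out. The libraries held between 29.5 and 43.2 M mapped reads each (M, 1e6). Both day-6 libraries of replicate 1 carry an earlier year in their names than the others. No replicate is stated to be 1 mouse, so the p-values measure the spread between libraries of 3 independent experiments.

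GM-CSF signals through a receptor that shares its beta chain with the IL-3 and IL-5 receptors, activates the kinase JAK2 and leads to phosphorylation of STAT5, which enters the nucleus as a dimer and binds DNA at the letters TTCNNNGAA. Pairs of dimers bound to neighbouring sites can join through their N-domains into tetramers, which hold on to weaker sites. In culture with GM-CSF, monocytes lose genes of the circulating monocyte and acquire genes of dendritic cells (DCs) and of macrophages side by side.

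The transcripts of the mutated genes themselves do not check the genotype, because point mutations leave the mRNA in place. *Stat5a* was at 13.4, 13.1 and 17.1 RPKM in WT and at 12.1, 12.99 and 16.1 RPKM in DKI monocytes on day 0. On day 6 it was at 35.2, 27.2 and 62.4 RPKM in WT and at 9.22, 14.4 and 11.4 RPKM in DKI cells. The WT change passed the test and the DKI change did not, and the difference between the changes was -1.61 (log2 scale, SE 0.39), with a limma adjusted p of 0.055 that became 0.0359 when libraries were paired. For *Stat5b* the difference was -0.60 (SE 0.30, adjusted p = 0.34, or 0.0427 with libraries paired).

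For each gene the genotype by time difference is the change from day 0 to day 6 in DKI minus the same change in WT, on log2(RPKM + 1). RPKM is the read count scaled by gene length and by the number of mapped reads, and adding 1 makes the change of a gene with low values look smaller than it is. A gene was called where the Benjamini-Hochberg adjusted p from limma over all 10353 genes was under 0.05 and the difference was above 1.5-fold. Of the 290 genes called, 197 had a lower change in DKI (1.9% of the genes tested) and 93 a higher change (0.898%). The genotype whose change was larger in size then gave each gene its class. In 165 genes a rise in WT was missing or smaller in DKI (failed induction), and in 33 genes a fall in WT was missing or smaller (failed repression). In 60 genes DKI cells had a rise that WT lacked or had to a lesser extent (gained induction), and in 32 genes they had such a fall (gained repression), which passed the test within DKI for 30 of the 32. On day 0 no gene was called between the genotypes by limma (0% of the genes tested), and 65 genes (0.628%) had an unadjusted p under 0.05. With day-0 libraries of the same number as pairs limma called 0 genes too, with 123 (1.19%) at an unadjusted p under 0.05, and voom on the reads called 0, with 66. Both shares of small p were under the 5% level itself, so that these counts of 0 do not show that the genotypes were alike on day 0. Between day 0 and day 6, limma called 2152 genes higher (20.8%) and 2367 lower (22.9%) in WT, and 1672 higher (16.1%) and 2850 lower (27.5%) in DKI, which is 43.6% and 43.7% of the genes tested. On day 6 itself 993 genes were lower (9.59%) and 501 higher (4.84%) in DKI than in WT, or 14.4% in all.

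These counts moved with the model and with single libraries, while the direction of all 290 genes remained the same in every fit made that included the gene. When same-numbered libraries of a day were treated as pairs, 1401 genes were called (13.5%), 896 lower (8.65%) and 505 higher (4.88%), and 288 of the 290 were among them. The median difference over all genes tested was -0.17, and centring each library on its median changed the calls to 150 lower and 126 higher, or 54.3% lower in place of 67.9%. Quantile normalization gave 163 lower and 156 higher (51.1% lower). Leaving out any 1 of the 6 day-0 libraries left 117 to 145 genes, and leaving out WT day-6 replicate 3 left 154. Leaving out replicate 2 of day 6 raised the count to 522 (WT library) or 664 (DKI library). Without both replicate 1 libraries of day 6, which differ from the others in name year, 204 genes were called. On whole reads worked back from the RPKM values, limma voom called 50 genes (27 lower, 23 higher), and all 50 were among the 290.

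**Figure D1:**
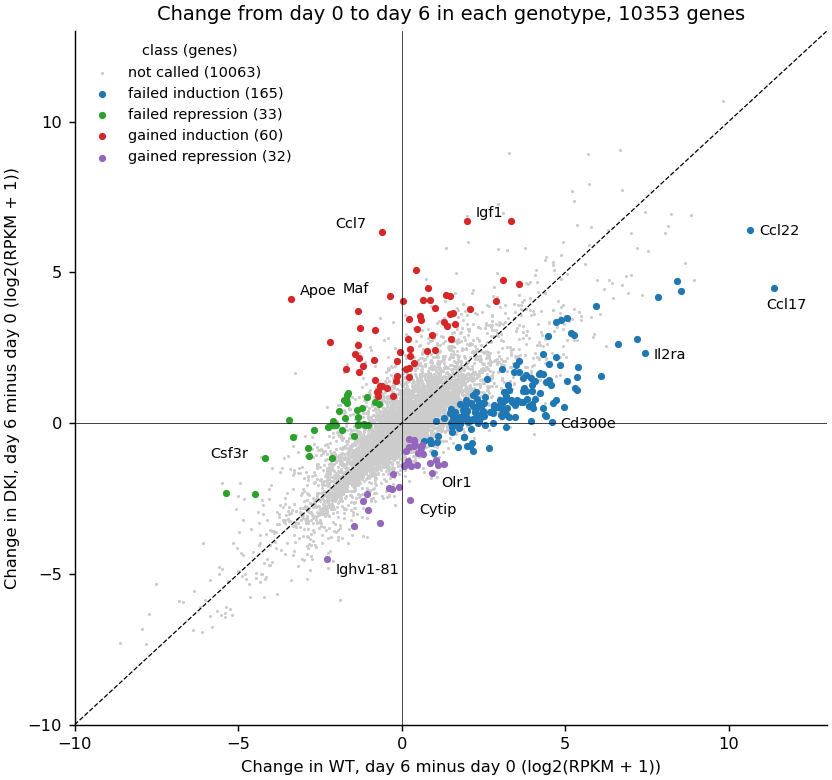
Change from day 0 to day 6 in WT (x axis) against DKI (y axis), both as differences of mean log2(RPKM + 1), for 10353 genes. Each point is a gene, colours mark the 4 classes of the 290 genes called, and genes on the dashed line changed alike. Failed induction (165 genes) lies to the right below the line, where the median change was 2.95 in WT and 0.56 in DKI, and gained induction (60 genes) lies above the line.

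Failed induction was mostly made of genes that were nearly silent in monocytes and rose in WT cultures. Over the 165 genes the median of the group means on day 0 was 0.316 RPKM (WT) and 0.32 RPKM (DKI), and on day 6 it was 20.1 RPKM (WT) and 2.27 RPKM (DKI). Of these genes 104 (63%) had a mean below 1 RPKM in both genotypes on day 0, and such genes could enter the test only through a high level on day 6. The median change was 2.95 in WT and 0.56 in DKI. The DKI cells were not without a response, since 67 of the 165 were called higher on day 6 in DKI too, 93 were not called and 5 were called lower. In 102 genes the log2 change in DKI was below 25% of that in WT.

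*Ccl17*, a chemokine by which DCs attract T cells (mm10 chr8:94809380-94812038), had the largest difference of this class. On day 0 it was at 0.0463, 0.184 and 0.717 RPKM in WT and at 0, 0 and 1.98 RPKM in DKI. By day 6 it stood at 3607, 1871 and 6080 RPKM in WT and at 86.4, 14.2 and 24.7 RPKM in DKI. The genotypes overlapped on day 0 and lay far apart on day 6, although *Ccl17* was called higher in both. The difference was -6.89 (SE 0.93, limma adjusted p = 0.00376), and voom on the reads, which was added after the data were seen, gave an adjusted p of 0.484. *Ccl22*, which binds the same receptor, CCR4, reached 1934, 1392 and 2924 RPKM in WT and 154, 57.0 and 107 RPKM in DKI (-4.26, SE 0.48, adjusted p = 0.00156).

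*Il2ra* (chr2:11642792-11693194) encodes the alpha chain of the IL-2 receptor and is a classical STAT5 target. It was below 0.13 RPKM in all 6 libraries of day 0. By day 6 it had reached 257, 147 and 181 RPKM in WT but only 3.58, 4.29 and 4.78 RPKM in DKI. The difference of -5.13 had the smallest error among the 7 leading genes of the class (SE 0.27, adjusted p = 1.34e-05), and it passed the test with any 1 of the 12 libraries left out, while voom on the reads gave an adjusted p of 0.0593. *Socs2*, a feedback inhibitor that STAT5 induces, rose from under 0.19 RPKM to 177, 114 and 194 RPKM in WT and to 9.90, 3.23 and 10.3 RPKM in DKI (-4.38, SE 0.48, adjusted p = 0.00136). *Itgae*, the integrin CD103, was at 32.7, 48.0 and 21.8 RPKM in WT on day 6 and at 0.167, 2.25 and 0.0379 RPKM in DKI, so that it passed the test of change in WT and not in DKI. The immunoglobulin-like membrane protein gene *Hepacam2* was at 86.4, 56.1 and 89.7 RPKM in WT and at 0.982, 4.15 and 2.40 RPKM in DKI on day 6. The activating receptor gene *Cd300e* spread widely in WT on day 6, with 70.2, 34.9 and 5.34 RPKM, and was at 0.0683, 0.289 and 0 RPKM in DKI. Its difference of -4.56 (SE 0.93, adjusted p = 0.028) passed the test in 4 of the 12 fits that each left out 1 library, with adjusted p up to 0.0771.

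Other members were picked after their values were seen because they encode well-known immune regulators. *Tnfrsf9*, the co-stimulatory receptor 4-1BB, was at 543, 239 and 621 RPKM in WT and at 15.7, 15.5 and 43.5 RPKM in DKI on day 6. *Mycl*, the MYC-family factor that DCs use in place of *Myc*, was at 33.8, 16.5 and 40.1 RPKM in WT and at 0.703, 0.498 and 0.668 RPKM in DKI. *Pdcd1*, the inhibitory receptor PD-1, was low throughout, with 6.09, 3.16 and 6.11 RPKM in WT and 1.16, 0.319 and 0.359 RPKM in DKI. The first and second of these passed the test with any 1 library left out but not with voom (adjusted p of 0.416 and 0.0545), and *Pdcd1* passed it in 3 of 12 fits that left out 1 library.

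Promoters of this class were searched for TTCNNNGAA, which reads the same on both strands, in the RefSeq windows of GRCm38.p6 (mm10) from 250 bases before to 50 bases after an annotated start. A window was found for 134 of the 165 genes. At least 1 match was present for 13 of the 134 genes (9.7%), against 680 of 8218 genes tested that had a window (8.27%) and 2726 of 32851 windows in all (8.3%). The shares were 2 of 25 (8%) for failed repression, 6 of 50 (12%) for gained induction and 2 of 23 (8.7%) for gained repression, so that each class lay near the share of all genes. The 4 windows shown are those of *Ccl17* and *Cd300e*, the leading genes of the class that held a match, and of *Lta* and *Il18r1*, which were the members with 2 matches. Each runs 5′ to 3′ over the 250 bases before the start on the gene's own strand, and capitals mark the matches.
Ccl17, chr8:94810203-94810452, plus strand: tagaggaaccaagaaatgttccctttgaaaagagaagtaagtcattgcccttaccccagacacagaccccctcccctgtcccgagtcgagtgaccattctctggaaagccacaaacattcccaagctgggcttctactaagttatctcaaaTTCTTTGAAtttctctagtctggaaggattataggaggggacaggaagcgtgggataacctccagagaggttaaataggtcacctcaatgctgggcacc
Cd300e, chr11:115062040-115062289, minus strand: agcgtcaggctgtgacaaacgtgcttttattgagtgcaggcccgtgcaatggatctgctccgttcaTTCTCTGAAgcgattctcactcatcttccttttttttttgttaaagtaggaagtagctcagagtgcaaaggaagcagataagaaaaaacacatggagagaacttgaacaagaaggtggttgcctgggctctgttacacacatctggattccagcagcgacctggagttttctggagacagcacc
Lta, chr17:35205352-35205601, minus strand: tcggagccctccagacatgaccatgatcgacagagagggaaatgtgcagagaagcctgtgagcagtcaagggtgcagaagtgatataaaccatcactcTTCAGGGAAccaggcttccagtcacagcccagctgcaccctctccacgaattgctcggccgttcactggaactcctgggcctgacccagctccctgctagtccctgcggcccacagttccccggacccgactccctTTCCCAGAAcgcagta
Il18r1, chr1:40465756-40466005, plus strand: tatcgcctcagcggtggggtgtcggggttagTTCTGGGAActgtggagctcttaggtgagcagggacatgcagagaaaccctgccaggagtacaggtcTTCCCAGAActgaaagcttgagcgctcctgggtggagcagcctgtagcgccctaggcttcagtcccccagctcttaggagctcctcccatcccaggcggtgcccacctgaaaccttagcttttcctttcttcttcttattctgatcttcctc

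The match began 99 bases before the start in *Ccl17* and 184 bases before it in *Cd300e*. In *Lta*, which encodes lymphotoxin alpha, matches began 152 and 16 bases before the start. On day 6 *Lta* was at 13.7, 23.2 and 14.0 RPKM in WT and at 0.0963, 0.111 and 0.188 RPKM in DKI, where its change of 0.06 did not pass the test. In *Il18r1*, the IL-18 receptor chain, matches began 219 and 152 bases before the start. It was at 13.5, 7.37 and 11.2 RPKM in WT and at 0.828, 3.01 and 2.01 RPKM in DKI, and it was called higher than on day 0 in both genotypes. Its genotype by time call held in 3 of 12 fits that left out 1 library. Whether STAT5 bound these letters was not measured here.

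**Figure D2:**
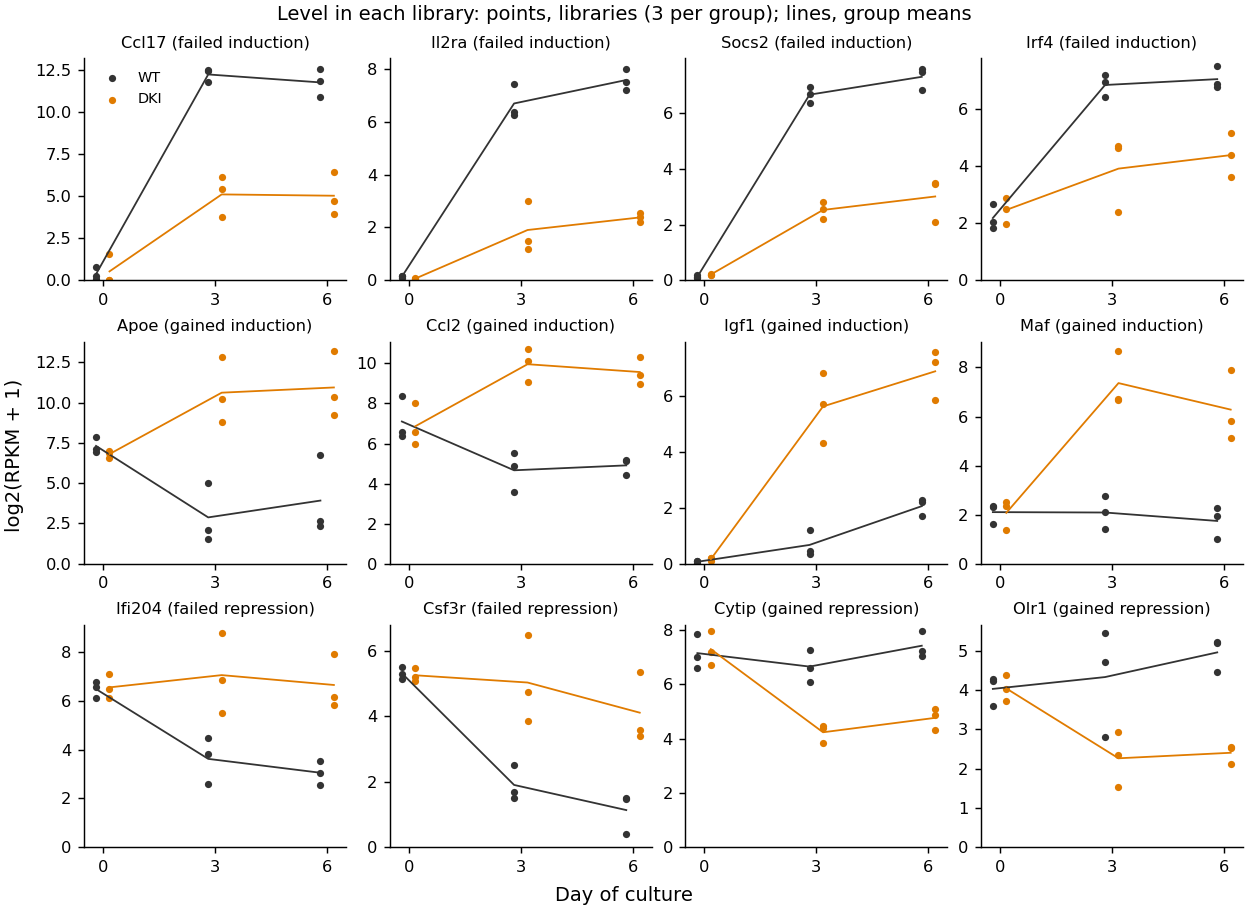
Level of 12 genes as log2(RPKM + 1) (y axis) on days 0, 3 and 6 of culture (x axis). Points are single libraries, 3 for each genotype and day, and lines join the group means of WT (dark) and DKI (orange). The genotypes overlap on day 0 except for *Il2ra* and *Igf1*, both below 0.15 RPKM there, and are separate on day 6 in every panel, with *Ccl17*, *Il2ra*, *Socs2*, *Irf4*, *Cytip* and *Olr1* lower in DKI and the other 6 genes higher.

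Failed repression held genes that monocytes expressed and that fell in WT cultures. The median of the group means over the 33 genes on day 0 was 32.7 RPKM (WT) and 32.9 RPKM (DKI), and on day 6 it was 7.59 RPKM (WT) and 28.2 RPKM (DKI). The median change was -1.74 in WT and -0.02 in DKI, and 24 of the 33 were not called between day 0 and day 6 in DKI, 5 were called lower and 4 higher. *Ifi204* (chr1:173747293-173767069), an interferon-inducible sensor of the p200 family, led the class. It was at 92.4, 109 and 68.2 RPKM in WT and at 87.5, 134 and 67.5 RPKM in DKI on day 0. On day 6 WT cells had fallen to 10.6, 7.20 and 4.92 RPKM, whereas DKI libraries held 242, 56.2 and 71.1 RPKM. The difference was 3.53 (SE 0.69, limma adjusted p = 0.0249), and 6 of 12 fits that left out 1 library kept the call. *Ifi203* of the same family was at 3.92, 2.74 and 2.42 RPKM in WT and at 57.5, 19.9 and 18.3 RPKM in DKI on day 6 (2.87, SE 0.52, adjusted p = 0.0183). The members of this family are similar in sequence, and reads could have been divided among them by the counting.

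*Csf3r*, the G-CSF receptor of monocytes and granulocytes, was between 33.0 and 44.5 RPKM in all day-0 libraries. On day 6 it was at 1.84, 1.78 and 0.335 RPKM in WT and at 39.9, 11.1 and 9.53 RPKM in DKI, a difference of 3.04 (SE 0.65, adjusted p = 0.0352). The DKI fall of -1.14 did not pass the test. Leaving out 1 library at a time, *Csf3r* was called in 4 of 12 fits, *Iqgap2* and *Nt5dc2* in 3 each, and *Ifi203* and *Oas2* in 8 each. *Iqgap2*, a scaffold protein of the cytoskeleton, fell in both genotypes, to 1.37, 1.27 and 1.16 RPKM in WT and to 34.2, 6.55 and 18.6 RPKM in DKI. *Slc28a2*, a nucleoside transporter with a close copy in the mouse genome, was at 0.0952, 0.316 and 0.245 RPKM in WT and at 8.21, 5.78 and 5.88 RPKM in DKI on day 6, and it passed the test with any 1 library left out (2.60, SE 0.25, adjusted p = 0.000828). *Nt5dc2*, a 5′-nucleotidase-domain protein, was at 4.89, 6.69 and 2.16 RPKM in WT and at 60.6, 31.1 and 15.5 RPKM in DKI. *Oas2*, an antiviral enzyme, was at 0.192, 0.181 and 0.094 RPKM in WT and at 12.3, 8.94 and 4.16 RPKM in DKI. Both lysozyme genes were in this class. *Lyz2*, named after its values were seen, was at 2681, 3160 and 2201 RPKM in WT and at 12240, 8638 and 10210 RPKM in DKI on day 6, but it is a near copy of *Lyz1*, and how shared reads were counted is not given in the sources used here. *Thbd*, which encodes thrombomodulin and was also named after its values were seen, fell in both genotypes, to 0.177, 0.796 and 0.293 RPKM in WT and to 6.54, 4.13 and 6.43 RPKM in DKI.

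Gained induction included genes of tissue macrophages and of monocyte recruitment. Its 60 genes had a median on day 0 of 3.58 RPKM (WT) and 3.34 RPKM (DKI), and on day 6 of 3.37 RPKM (WT) and 34.6 RPKM (DKI). In WT 18 of them were called higher on day 6, 12 lower and 30 in neither direction. *Apoe* (chr7:19696244-19701310), the lipid carrier that macrophages secrete, moved in opposite directions. It went from 122, 232 and 138 RPKM to 107, 3.98 and 5.39 RPKM in WT, and from 92.6, 127 and 115 RPKM to 9422, 600 and 1321 RPKM in DKI. Replicate 1 had the highest *Apoe* on day 6 in both genotypes, and the same-numbered DKI library was above the WT library in each set. The difference of 7.52 was the largest of all genes called, and its error was large too (SE 1.63, limma adjusted p = 0.0364). Pairing the libraries gave an adjusted p of 0.000395, and the call held in 3 of 12 fits that left out 1 library.

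*Ccl2* and *Ccl7*, neighbouring genes on chromosome 11 that encode ligands of the monocyte receptor CCR2, rose in DKI. *Ccl7* was at 1023, 172 and 264 RPKM in DKI and at 5.53, 1.22 and 1.73 RPKM in WT on day 6 (6.94, SE 1.24, adjusted p = 0.0174). *Ccl2* was at 1284, 682 and 500 RPKM in DKI and fell to 33.9, 35.5 and 20.3 RPKM in WT (4.90, SE 0.88, adjusted p = 0.0174), and both passed the test with any 1 library left out. With voom the adjusted p of *Ccl7* was 0.121 and that of *Ccl2* 0.05. *Igf1*, a growth factor made by macrophages, was below 0.15 RPKM in every day-0 library and reached 57.0, 147 and 188 RPKM in DKI and 2.23, 3.79 and 3.65 RPKM in WT. Its difference of 4.73 (SE 0.50, adjusted p = 0.00129) also passed with any 1 library left out, but voom on the reads gave an adjusted p of 0.253. *Maf*, a transcription factor of resident macrophages, was at 238, 33.5 and 56.2 RPKM in DKI and at 3.80, 2.83 and 1.03 RPKM in WT on day 6. *Fcgr4*, an activating Fc receptor, was at 215, 17.8 and 83.3 RPKM in DKI and at 1.21, 1.08 and 2.25 RPKM in WT. *Folr2*, a folate receptor of tissue macrophages, was at 151, 21.9 and 13.3 RPKM in DKI and at 0.820, 0.302 and 0.306 RPKM in WT. *Maf* was called in 7 of 12 fits that left out 1 library, *Fcgr4* in 6 and *Folr2* in 5. *Hgf*, the hepatocyte growth factor gene, named after its values were seen, fell to 2.13, 3.14 and 2.03 RPKM in WT and rose to 16.9, 28.4 and 37.3 RPKM in DKI (3.00, SE 0.43, adjusted p = 0.0054).

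Gained repression was made of genes that monocytes of both genotypes expressed. Its 32 genes had a median on day 0 of 35.9 RPKM (WT) and 36.7 RPKM (DKI), and on day 6 of 47.8 RPKM (WT) and 15.6 RPKM (DKI). *Cytip* (chr2:58129139-58195549), a regulator of leukocyte adhesion, was at 149, 132 and 252 RPKM in WT and at 19.1, 33.3 and 28.2 RPKM in DKI on day 6, after 95.6 to 250 RPKM in both genotypes on day 0. Its difference was -2.80 (SE 0.57, limma adjusted p = 0.0273), and the WT change of 0.27 did not pass the test. The call of *Cytip* held in 4 of 12 fits that left out 1 library, with adjusted p up to 0.0692. *Kcna3*, a potassium channel, was at 21.4, 24.5 and 17.7 RPKM in WT and at 1.89, 5.89 and 2.19 RPKM in DKI (-2.66, SE 0.47, adjusted p = 0.0153). *Olr1*, the receptor for oxidised LDL, *Lpcat4*, a phospholipid-remodelling enzyme, *Tspan13*, a tetraspanin, and *Stbd1*, a starch-binding protein, were each called higher in WT and lower in DKI. *Olr1* was at 20.9, 36.1 and 36.0 RPKM in WT and at 3.35, 4.89 and 4.77 RPKM in DKI on day 6 (-2.57, SE 0.38, adjusted p = 0.00647). The class also held *Xbp1*, the factor of the unfolded protein response, at 374, 260 and 368 RPKM in WT and 136, 112 and 171 RPKM in DKI. *Nfkb1*, an NF-kappaB subunit, was at 114, 88.9 and 162 RPKM in WT and at 45.6, 43.2 and 35.1 RPKM in DKI, and both of these were named after their values were seen. Of 12 fits that left out 1 library, *Lpcat4* was called in 4, *Xbp1* in 3, *Stbd1* in 2 and *Nfkb1* in 2.

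A minority of gained repression started from a difference on day 0. In 3 of its 32 genes, the immunoglobulin heavy-chain variable genes *Ighv1-81*, *Ighv1-36* and *Ighv1-4*, the genotypes differed on day 0 by over 1.5-fold on the log2(RPKM + 1) scale, and on this scale, which shrinks the differences of genes with low values, this was so for no gene of the other 3 classes. *Ighv1-81* was at 38.4, 25.9 and 19.9 RPKM in DKI and at 4.69, 5.87 and 1.99 RPKM in WT on day 0. On day 6 it was listed at 0 in all 3 WT libraries and at 0.340, 0.0872 and 0.295 RPKM in DKI. Its difference was -2.22, while voom on the reads gave -0.37 (SE 1.37, adjusted p = 0.924). The means of 124 of the 155 immunoglobulin variable genes tested were higher in DKI than in WT on day 0, and none was called there. With all 18 libraries in the fit, or without WT day-0 replicate 2, 6 genes were called on day 0, all immunoglobulin variable genes and all higher in DKI, among them *Ighv1-81* and *Ighv1-4*. The summed level of 12 B cell markers ranged from 34.5 to 109 RPKM in WT and from 75.4 to 262 RPKM in DKI on day 0, and was at most 4.89 RPKM on day 6. These variable genes are similar in sequence, how shared reads were counted is not given, and the part of B cells in these 3 calls was not tested.

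Single genes went in opposite directions in the genotypes. Of 16 genes called higher in WT and lower in DKI, 13 were called for the genotype by time difference, and of 19 genes called lower in WT and higher in DKI, 16 were. These genes were picked by opposite changes in the same fit, which makes their difference large, so that most were set to pass. Just inside the limit of the test lay *Pacsin1*, with an adjusted p of 0.0494, and just outside it *Pabpc4*, with 0.0504.

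The sets of same-numbered libraries are made of the libraries that chose the genes, so that a shared direction is no check of the classes, and they are given to show the spread. The medians of failed induction were -2.28, -1.85 and -2.48 in the sets of replicates 1, 2 and 3. Those of gained induction were 2.60, 1.80 and 2.58, of failed repression 2.25, 1.54 and 2.08, and of gained repression -1.82, -1.28 and -1.82, and all 4 were smallest in size in replicate 2. Replicate 1 is the set whose day-6 libraries carry another year in their names, and as 1 library of each genotype and day it allows no test of its own. Among the DKI libraries of day 6, replicate 2 was the lowest of the 3 in 34 of the 60 genes of gained induction and replicate 1 the highest in 34. Among the WT libraries of day 6, replicate 2 was the lowest in 109 of the 165 genes of failed induction.

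**Figure D3:**
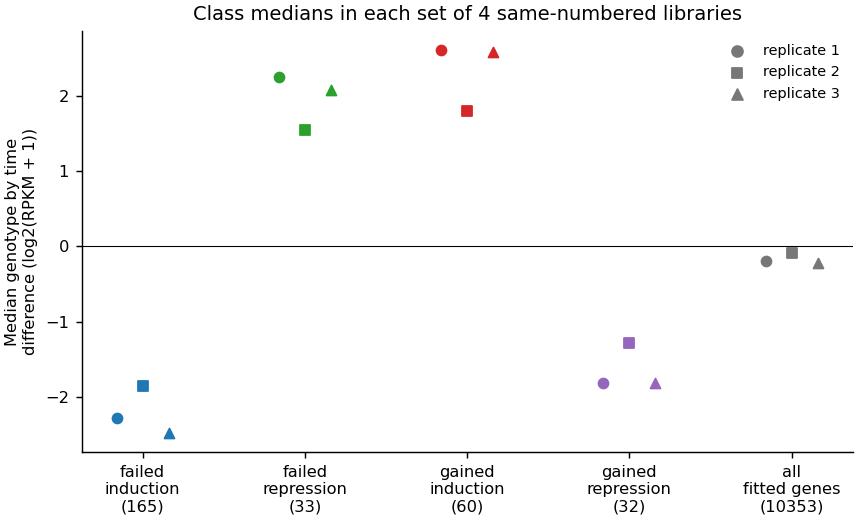
Median genotype by time difference in log2(RPKM + 1) (y axis) for each class and for all genes tested (x axis, number of genes in brackets), worked out separately in the 3 sets of 4 same-numbered libraries. Marker shape gives the replicate number. Replicate 2 (squares) lies closest to 0 in all 4 classes.

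The day-3 libraries, which had no part in choosing the genes, were then compared between the genotypes. Of 9740 genes tested on day 3, limma called 410 lower (4.21%) and 313 higher (3.21%) in DKI. Of failed induction, 147 genes were expressed highly enough to be tested, and 94 of them were called lower (63.9%), with a median difference of -2.10. Of failed repression, 27 of 33 were called higher (median 1.93). Gained induction had 43 of 58 called higher (median 2.37), and gained repression 14 of 29 called lower (median -1.29). The median over all genes tested was -0.11. Genes at low levels in both genotypes on day 3, 18 of failed induction among them, were not tested, and others entered through the genotype in which they were high, so that the direction and the shares of these classes are partly set by the limit on mean RPKM. Day-3 and day-6 libraries bear the same replicate numbers and may come from the same cultures, in which case they are not independent. With pairs as a block the number called in the direction of their class changed from 178 to 148. Leaving out WT day-3 replicate 1, 2 or 3 left 79, 92 or 94 genes, and leaving out 1 DKI library of day 3 left 119 to 155.

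Some leading genes differed between the genotypes on day 3 already. *Ccl17* was at 3473, 5758 and 5500 RPKM in WT and at 12.5, 42.2 and 68.0 RPKM in DKI on day 3 (-7.13, limma adjusted p = 0.00477). *Igf1* was at 19.1, 112 and 51.7 RPKM in DKI and at 0.377, 1.31 and 0.267 RPKM in WT (4.95, adjusted p = 0.0112). *Apoe* was at 7177, 441 and 1205 RPKM in DKI and at 30.5, 3.23 and 1.94 RPKM in WT (7.74, adjusted p = 0.0213). *Ifi204* spread more, with 443, 115 and 44.3 RPKM in DKI and 13, 4.95 and 21.1 RPKM in WT, and did not pass the test (3.43, adjusted p = 0.068). *Olr1* (-2.07, adjusted p = 0.13) and *Folr2* (4.36, adjusted p = 0.0604) likewise did not pass it on day 3.

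**Figure D4:**
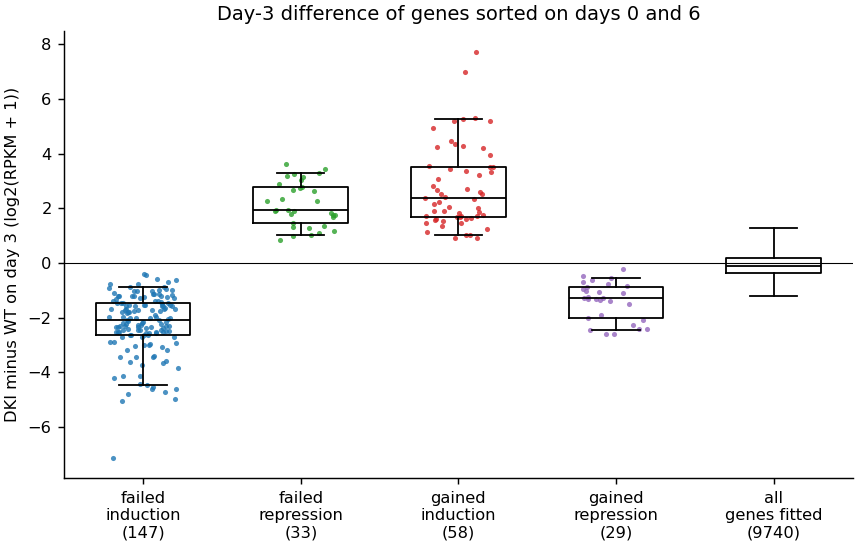
Difference between DKI and WT on day 3 in log2(RPKM + 1) (y axis) for the genes sorted into classes on days 0 and 6 and for all 9740 genes tested on day 3 (x axis). Coloured points are genes, boxes give the median and quartiles, and whiskers the 5th and 95th percentiles. Class medians lie at -2.10, 1.93, 2.37 and -1.29, against -0.11 for all genes.

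The genes were next grouped by function. Among 28 genes of DC maturation and migration that were tested, 9 had a lower change in DKI and 0 a higher one, and 17 were lower with libraries paired, where 1.9% and 8.65% of all genes were lower. The median difference was -2.16, and 21 of the 28 rose in WT and 16 in DKI, where 20.8% and 16.1% of all genes rose. Besides *Ccl17*, *Ccl22*, *Itgae* and *Socs2* the 9 included *Ccr7*, the receptor that takes DCs to lymph nodes. *Ccr7* was at 456, 296 and 824 RPKM in WT and at 33.9, 16.5 and 70.9 RPKM in DKI on day 6 (-3.70, SE 0.65, limma adjusted p = 0.0155). *Cacnb3*, a calcium channel subunit of mature DCs, was at 86.6, 96.8 and 123 RPKM in WT and at 6.77, 3.27 and 8.61 RPKM in DKI (-3.99, SE 0.36, adjusted p = 0.000662). *Cx3cl1*, the membrane-bound chemokine fractalkine, was at 28.7, 15.4 and 36.3 RPKM in WT and at 3.29, 0.660 and 2.89 RPKM in DKI. Fits that left out 1 library called 9 to 13 genes of the list lower, but voom on the reads called 0 of them, with a median of -2.34.

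Genes of MHC class II presentation rose in both genotypes, 12 of 16 in WT and 11 in DKI, where 20.8% and 16.1% of all genes rose. The median genotype by time difference was -1.66, with 15 of 16 below 0, and limma and voom each called 0 of the 16, which at 2.8% of all genes called says little about so short a list. *Cd74*, the invariant chain, went from 55.0, 92.5 and 80.9 RPKM to 20450, 10380 and 12840 RPKM in WT and from 45.9, 121 and 99.2 RPKM to 2894, 7752 and 3680 RPKM in DKI. The genotypes did not overlap on day 6, and the difference was -1.82 (SE 0.63, limma adjusted p = 0.156, or 0.0811 with libraries paired). *Ctss*, the protease that trims the invariant chain, had a difference in the other direction, 1.21 (SE 0.32, adjusted p = 0.071, or 0.0406 with libraries paired). Without DKI day-6 replicate 2 alone, 7 genes of the list were called lower, and without WT day-6 replicate 2, 2 lower and 1 higher. The median of the list was -0.92 without both replicate 1 libraries of day 6.

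Among 20 transcription factors of DCs, 4 had a lower change in DKI and 0 a higher one (median -1.08), and 13 were lower and 1 higher with libraries paired, against 1.9% lower of all genes and 8.65% lower with pairs. *Irf4*, which directs monocytes towards DCs, was at 107, 114 and 178 RPKM in WT and at 11.2, 34.0 and 19.9 RPKM in DKI on day 6 (-2.94, SE 0.55, limma adjusted p = 0.0211). *Nr4a3*, an orphan nuclear receptor needed for DC migration, was between 15.0 and 18.5 RPKM in all day-0 libraries. It was at 142, 46.8 and 230 RPKM in WT and at 9.84, 8.16 and 10.1 RPKM in DKI on day 6 (-3.49, SE 0.61, adjusted p = 0.0154). *Ikzf4*, the Ikaros-family factor Eos, rose from at most 0.0198 RPKM to 13.02, 13.4 and 19.6 RPKM in WT and to 0.632, 1.22 and 1.67 RPKM in DKI. *Zbtb46*, a factor of classical DCs, was at 13.7, 12.7 and 16.6 RPKM in WT and at 2.45, 6.59 and 1.93 RPKM in DKI. The adjusted p of *Zbtb46* was 0.0477, and only 2 of 12 fits that left out 1 library kept its call. *Irf4* was called in 7 of them. Those fits called 2 to 6 genes of the list lower, and voom called 1, with a median of -1.12.

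The STAT5 pathway was followed from receptor to feedback. Of 14 growth factor receptor and STAT5 genes, *Jak2* was called lower and *Csf3r* higher, and 6 were lower and 2 higher with libraries paired. Of all genes 1.9% were lower and 0.898% higher, or 8.65% and 4.88% with pairs. *Jak2*, the kinase bound to the GM-CSF receptor, was at 374, 286 and 528 RPKM in WT and at 52.9, 97.9 and 74.0 RPKM in DKI on day 6, after 35.4 to 64.2 RPKM in all libraries of day 0 (-2.40, SE 0.44, limma adjusted p = 0.0186). The call of *Jak2* held in 8 of 12 fits that left out 1 library, with adjusted p up to 0.0611. *Csf2rb*, the signalling chain of the receptor, which has the near copy *Csf2rb2*, was at 579, 643 and 533 RPKM in WT and at 277, 457 and 360 RPKM in DKI on day 6 (-0.79, SE 0.47, adjusted p = 0.432, or 0.0473 with libraries paired). *Csf1r*, the M-CSF receptor, overlapped between the genotypes, with 426, 279 and 113 RPKM in WT and 780, 364 and 261 RPKM in DKI (0.87, SE 0.67, adjusted p = 0.558, or 0.0481 with libraries paired).

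Of 18 STAT5 feedback and target genes, 3 were called lower (*Il2ra*, *Socs2* and *Socs1*) and 1 higher (*Igf1*), against 1.9% and 0.898% of all genes. With libraries paired 5 were lower and 1 higher, against 8.65% and 4.88%. The list had a median of -0.36 against -0.17 over all genes, and leaving out 1 library gave medians from -0.62 to -0.24. *Socs1*, an inhibitor of JAK kinases, was at 71.9, 70.7 and 75.1 RPKM in WT and at 30.5, 25.6 and 14.6 RPKM in DKI on day 6 (-1.56, SE 0.32, limma adjusted p = 0.028), called in 4 of 12 fits that left out 1 library. *Cish*, another such inhibitor that was named after its values were seen, was at 189, 151 and 186 RPKM in WT and at 27.9, 40.0 and 25.8 RPKM in DKI. Its day-0 values spread from 0.376 to 3.79 RPKM with the replicate number in both genotypes, and its difference of -2.43 (SE 0.65) had an adjusted p of 0.0773, or 0.00539 with libraries paired. The remaining 14 genes of the list were not called, and voom called 0 of the 18.

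Genes of macrophages leaned the other way. Of 31 macrophage surface and secreted genes, 5 had a higher change in DKI and 0 a lower one, and 22 were higher and 1 lower with libraries paired. Of all genes 0.898% were higher, and 4.88% were higher and 8.65% lower with pairs. The median difference was 2.18, and 13 of the 31 rose in WT and 26 in DKI, where 20.8% and 16.1% of all genes rose. With *Apoe*, *Fcgr4* and *Folr2* these were *Mrc1* and *Trem2*. *Mrc1*, the mannose receptor, was at 60.8, 30.5 and 29.9 RPKM in WT and at 419, 275 and 487 RPKM in DKI on day 6 (3.35, SE 0.56, limma adjusted p = 0.0119). *Trem2*, a lipid receptor, was at 66.5, 121 and 58.2 RPKM in WT and at 300, 298 and 304 RPKM in DKI (2.07, SE 0.40, adjusted p = 0.0243), called in 5 of 12 fits that left out 1 library. Leaving out 1 library gave between 1 (without WT day-0 replicate 2, DKI day-0 replicate 1 or DKI day-0 replicate 2) and 9 (without DKI day-6 replicate 2) called genes, and voom called 0, with a median of 2.42. Of 17 macrophage transcription factors only *Maf* was called, and 6 were higher and 1 lower with libraries paired (median 1.12).

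Day-0 replicate 1 stood apart for some macrophage genes in both genotypes. *Gpnmb*, a lysosomal membrane glycoprotein, had 177 (WT) and 170 (DKI) RPKM in replicate 1, against 1.90 to 6.30 RPKM in the other 4 day-0 libraries. *Spp1*, which encodes osteopontin, was at 966 and 1059 RPKM in replicate 1 and between 31.1 and 73.1 RPKM in the others. On day 6 *Gpnmb* was at 259, 1859 and 388 RPKM in WT and at 2698, 4075 and 3025 RPKM in DKI, and its difference had a wide error (2.49, SE 2.32, limma adjusted p = 0.642, or 0.0366 with libraries paired). For *Spp1* the difference was 2.04 (SE 1.93, adjusted p = 0.646, or 0.0312 with libraries paired).

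Lysosomal genes were among the higher ones. Of 24 genes of lysosomes and lipid handling, 5 had a higher change in DKI and 0 a lower one (median 1.08). In DKI 18 of them rose and in WT 8, where 16.1% and 20.8% of all genes rose. With libraries paired, 9 were higher, where 4.88% of all genes were (0.898% without pairs). The protease cathepsin L, *Ctsl*, was at 175, 271 and 203 RPKM in WT and at 3307, 1523 and 3894 RPKM in DKI on day 6 (3.68, SE 0.63, limma adjusted p = 0.0136). *Ctsd*, cathepsin D, was at 478, 1133 and 718 RPKM in WT and at 6725, 2567 and 5484 RPKM in DKI (2.72, SE 0.54, adjusted p = 0.0266). *Ctsb*, cathepsin B, was at 368, 551 and 357 RPKM in WT and at 3695, 1775 and 2138 RPKM in DKI (2.61, SE 0.45, adjusted p = 0.0138). The lysosomal membrane protein gene *Lamp1* and the protective protein gene *Ctsa* had smaller differences of 1.51 and 1.28. *Ctsl* and *Ctsb* were called in 12 of 12 fits that left out 1 library, *Ctsa* in 4, *Ctsd* in 3 and *Lamp1* in 2. Without both replicate 1 libraries of day 6, 1 gene of the list was called. Leaving out 1 library gave 2 (any day-0 library but DKI replicate 1, or DKI day-6 replicate 3) to 6, and voom called 2.

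Of 27 type I interferon-stimulated genes, 4 had a higher change in DKI and 0 a lower one, and 14 were higher with libraries paired, against 0.898% and 4.88% of all genes. The median difference was 2.53, but 1.62 without DKI day-6 replicate 1 and 1.82 without both replicate 1 libraries of day 6. In WT 2 of the 27 rose and 5 fell, where 20.8% of all genes rose and 22.9% fell, and in DKI 16 rose, where 16.1% of all genes did. Besides *Ifi204* and *Oas2* the genes called were *Rtp4*, a chaperone for membrane receptors, and *Rsad2*, the antiviral protein viperin. *Rtp4* was at 6.92, 0.770 and 0.609 RPKM in WT and at 145, 46.9 and 44.1 RPKM in DKI on day 6 (4.42, SE 0.86, limma adjusted p = 0.0243). *Rsad2* was at 2.55, 1.74 and 2.12 RPKM in WT and at 132, 14.7 and 36.1 RPKM in DKI (3.72, SE 0.86, adjusted p = 0.0488). Leaving out 1 library at a time, *Rtp4* was called in 5 of 12 fits and *Rsad2* in 2. With all 18 libraries in the fit 0 genes were called, leaving out 1 library gave 0 (4 of the 6 day-0 libraries) to 9 (without DKI day-6 replicate 2), and voom called 0, with a median of 2.90.

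Of 20 chemokine genes, 3 were called lower (*Ccl17*, *Ccl22* and *Cx3cl1*) and 2 higher (*Ccl7* and *Ccl2*), against 1.9% and 0.898% of all genes. With libraries paired 4 were lower and 5 higher, against 8.65% and 4.88%, and voom called 0 lower and 1 higher. Leaving out 1 library gave 3 to 4 lower and 2 to 4 higher. Arginine metabolism had 0 of 13 genes called, and 1 higher and 3 lower with libraries paired. *Azin1*, a regulator of polyamine synthesis, overlapped between the genotypes (0.54, SE 0.55, adjusted p = 0.669).

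In 5 other programmes limma called 0 or 1 gene for the genotype by time difference, which in lists of this length is near the 2.8% of all genes and says little about them. Of 30 cell cycle and DNA replication genes, 28 fell in WT and 28 in DKI, where 22.9% and 27.5% of all genes fell, and 0 were called for the difference. The median of -0.47 turned to 0.30 without DKI day-6 replicate 3 and was -0.96 without DKI day-6 replicate 2, so that no direction is given for this list. Of 19 cholesterol synthesis genes, 15 rose in WT and 6 in DKI, where 20.8% and 16.1% of all genes rose, and 0 were called for the difference (median -0.66, with 16 of 19 below 0). Without DKI day-6 replicate 2, 3 of them were called lower and the median was -1.27. The median was -0.30 without DKI day-6 replicate 3 and -0.34 without replicate 1 of DKI or replicate 2 of WT on day 6. Of 19 glycolysis and hypoxia genes and of 19 ribosome biogenesis genes, 0 were called, with medians of -0.11 and -0.21, and the median of glycolysis turned to 0.12 without WT day-6 replicate 1 and to 0.16 without DKI day-6 replicate 3. With libraries paired 0 genes of cell cycle, cholesterol synthesis and ribosome biogenesis and 1 gene of glycolysis, which was lower, were called. Of 20 genes of classical monocytes, 16 fell in WT and 14 in DKI, where 22.9% and 27.5% of all genes fell, and only *Csf3r* was called for the difference. The median of 0.57 was 0.04 without DKI day-6 replicate 1 and 1.01 without DKI day-6 replicate 2. No gene of the list was called without any 1 of the 6 day-0 libraries or without WT day-6 replicate 3, and voom called 0.

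**Figure D5:**
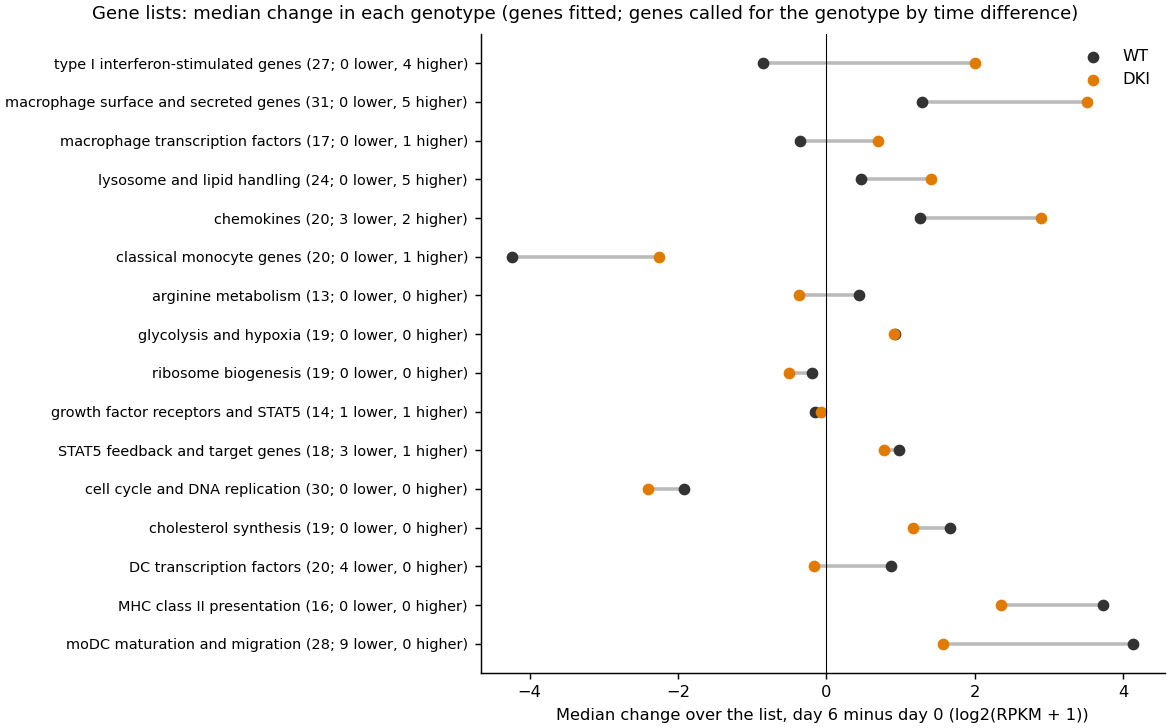
Median change from day 0 to day 6 in log2(RPKM + 1) (x axis) over the tested genes of each list, in WT (dark) and DKI (orange). Numbers beside each list are the genes tested and the genes called lower or higher for the genotype by time difference. The change is smaller in DKI for genes of DC maturation (4.14 in WT, 1.57 in DKI) and larger for macrophage surface and secreted genes (1.29 in WT, 3.51 in DKI).

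Markers of other cells were measured in the same libraries. The summed level of 19 neutrophil and granulocyte precursor genes was 3684 to 6289 RPKM in WT and 3850 to 7339 RPKM in DKI on day 0. On day 6 it was 737 to 1516 RPKM in WT and 1281 to 7810 RPKM in DKI, of which up to 7264 RPKM came from *Chil3*, which macrophages also express. None of the 19 was called for the difference by limma, where 2.8% of all genes were called, but 18 of them were above 0 (median 0.78). Without DKI day-6 replicate 1 the median was -0.32, with 7 of 19 above 0. Of the B cell markers 10 of 12, of the T and NK cell markers 10 of 14, and of the erythroid markers all 8 in the table were below 1 RPKM in every day-6 library. The sum of the T and NK cell markers was 105 to 129 RPKM (WT) and 148 to 176 RPKM (DKI) on day 6, with at most 61.7 RPKM on day 0, and *Il7r*, the IL-7 receptor chain, made up to 165 RPKM of it. Of 8 tested markers of mast cells, basophils and eosinophils 0 were called, and 1 was lower with libraries paired. Of all genes 2.8% were called, and 8.65% were lower with pairs, so that such counts say little about lists this short. The plasmacytoid DC list held the called gene *Pacsin1* and the stromal list *Lepr*, the leptin receptor, both lower in DKI. The other members did not all go this way. Of 6 tested plasmacytoid DC genes 4 differences were below 0 and 2 above, and of 7 stromal genes 3 were below and 4 above. The summed level of the plasmacytoid DC list on day 6 was 153 to 223 RPKM in WT and 160 to 975 RPKM in DKI. Up to 954 RPKM of it came from *Bst2*. The day-6 means were 9.24 (WT) and 1.04 (DKI) RPKM for *Pacsin1* and 4.99 and 0.0522 RPKM for *Lepr*, and the calls held in 2 and 3 of 12 fits that left out 1 library. In bulk RNA, fewer cells of a type and less RNA per cell cannot be told apart, and the part of other cells in the differences was not tested.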

How the data were processed

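Monocyte libraries were prepared with the Kapa mRNA HyperPrep kit and sequenced as single-end reads. The authors aligned reads to mm10 with Subread, counted them with featureCounts and deposited RPKM values per gene. Tool versions, strand and the treatment of multi-mapping reads are not given in the sources used here. Groups and replicate numbers came from the sample labels.

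Genes with a mean RPKM above 2 in any of the 4 groups were kept (10353), and log2(RPKM + 1) was fitted with limma 3.58.1 in R 4.3.3, group means without a block, with Benjamini-Hochberg adjustment over all of them (adjusted p under 0.05 and above 1.5-fold). A count test had been planned, but RPKM values are not counts, so that limma took its place. Whole reads could later be worked back from them, so that this choice was not forced by the data. Limma voom on those reads called 50 genes in place of 290. Python 3.11.15, numpy 2.4.6, pandas 2.3.3 and matplotlib 3.10.9 were used for the rest. Scripts were tested on simulated data.

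The low RPKM values were whole multiples of what 1 read is worth. Whole reads were recovered for 100% of the genes fitted (within 0.02 reads, with totals scaled on 945 single-exon receptor genes) and served limma voom as an alternative chosen after seeing the data. On a gene of 1 kb, 3 reads correspond to 0.0695 to 0.102 RPKM, which covers counting error only.

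The study combined 3 independent experiments. It is not stated whether a replicate number stands for 1 of them, or whether it links day 0 to day 6. Within a day, the deviations of a WT library and of the DKI library with its number from their groups' means were correlated. The r was 0.87, 0.69 and 0.84 on day 0 and 0.34, 0.40 and 0.41 on day 6. Such libraries were taken as pairs in alternative fits only. The main fit, which gave the calls, the classes and their adjusted p, left this pairing out. Day 0 and day 6 libraries of 1 number were not correlated in this way (-0.10 to 0.02).

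Genes named were the 7 with the largest difference in each class and the same sign in all 3 same-numbered sets, up to 6 called and, for 4 lists, up to 2 uncalled genes of each list by mean RPKM, *Stat5a* and *Stat5b*. Another 11 genes were chosen after their values were seen. The members and lists were chosen with earlier results of these data known. RefSeq records of GRCm38.p6 matched 20082 of 20298 genes by ID and gave 216 no match. 1 gene of the lists is not reported here.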

Additional observations from a re-analysis of the deposited data

Results flagged for a closer look

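The genotypes differed in their change from day 0 to day 6, by the limma test of that difference, in 197 genes whose change was lower and 93 genes whose change was higher in DKI. Among these, 13 genes were called higher in WT and lower in DKI (*Olr1*, *Xbp1*, *Tspan13* and *Lpcat4* for example), and 16 genes were called lower in WT and higher in DKI (*Apoe*, *Ccl2*, *Hgf* and *Lamp1* for example). Opposite changes in the same fit make a difference large, so that most such genes were set to pass. Of 12 fits that left out 1 library, *Olr1*, *Tspan13*, *Ccl2* and *Hgf* were called in 12. *Lpcat4* was called in 4, *Xbp1* and *Apoe* in 3 each and *Lamp1* in 2.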

How the results depend on the processing

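The direction of all 290 genes called was the same under every alternative in which they were fitted, and counts moved. Over the named genes and all alternatives, 1135 of 1517 values stayed on the same side of the threshold, 362 lost the call, 20 gained it and 0 reversed. The cause of the moves was not tested. With the replicate block (pairs within a day), 896 genes were lower and 505 higher, and the classes held 599 (failed induction), 197 (failed repression), 308 (gained induction) and 297 (gained repression). Limma voom on recovered reads, chosen after seeing the data, gave 27 lower and 23 higher and classes of 18, 12, 11 and 9. Quantile normalization gave 156 higher and 61 failed repression, 95 gained induction and 20 gained repression genes. Median centring left 15 gained repression genes, and no filter on mean RPKM left 21 failed repression genes. Without the libraries named for the earlier year, 118 genes were lower and 7 were gained repression. Requiring 2 promoter matches left 2, 0, 1 and 0 genes in the 4 classes. Leaving out 1 library gave 83 to 450 lower and 34 to 214 higher genes, classes of 75 to 339, 9 to 77, 24 to 137 and 8 to 111, and 79 to 155 members called on day 3. The calls of change within WT (3941 to 4602) and within DKI (4120 to 4569) stayed within 1.5 times. For the genotype by time counts and classes, the lowest came without DKI day-0 replicate 2 or WT day-0 replicate 2 and the highest without DKI day-6 replicate 2. For day 3 the lowest came without WT day-3 replicate 1 and the highest without DKI day-3 replicate 1. On day 0, where the alternatives were chosen after seeing the data, 6 genes were called with all 18 libraries in the fit and 0 to 6 without 1 library, and 0 under the other alternatives.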
